A study of Mus musculus with 6 samples.

Results

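Cycling cells of the 4T1 tumour line were defined by their transcripts: keratin or Epcam RNA marked a cell as tumour epithelium, and RNA of 8 genes of late cell division marked it as cycling. A barcode counted as a member when it had at least 200 detected genes, at least 2 summed UMIs (unique molecular identifiers, 1 per captured RNA molecule) of Krt8, Krt18, Krt7 and Epcam, at most 1 of the macrophage genes C1qa, C1qb and C1qc, at most 2 of the skin or mammary genes Krt5, Lgals7, Wfdc18 and Prlr, and at least 3 of Birc5, Ube2c, Ccna2, Cdc20, Top2a, Mki67, Cdk1 and Prc1. The rule found 470 cycling tumour cells among 2296 tumour cells (20.5%), 6730 barcodes with at least 200 genes and 30000 deposited barcodes. The 1826 tumour cells that met the same limits with fewer than 3 cycle UMIs are called other tumour cells. Because the 12 genes of the 2 gene sums chose the members, their levels and the differences in level between cycling and other tumour cells are given as descriptions with no test.

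The libraries came from tumours of the mouse mammary carcinoma line 4T1 in Balb/c mice, profiled by Drop-seq, in which RNA of each cell captured in a droplet receives 1 barcode. Per the labels, FVIO-MHT was applied to the tumours of 3 libraries and PBS (buffered saline) to those of the other 3, and tissue was taken 24 hours later. FVIO-MHT is mild heating of a tumour by iron oxide nanorings (FVIOs), placed in the tumour at 0.1 mg per cm3 of its volume, in an alternating magnetic field of 365 kHz for 10 min. The same protocol text stands on all 6 samples, so whether PBS tumours met the field is not stated, and the labels do not say whether replicates are separate mice; p-values then measure only the spread between these libraries, which may be technical.

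A dividing cell copies its DNA in S phase and separates the copies in mitosis, after a second gap (G2). Genes of DNA replication rise first, under E2F transcription factors, and genes of the spindle, centromere and mitotic checkpoint rise later, in G2 and M. Many late genes carry 2 short promoter motifs: the CCAAT box, where NF-Y activates them, and the cell cycle homology region, where the DREAM complex holds them down in resting cells. In tumours the fraction of cells in cycle is a standard measure of growth, with Mki67 and Top2a as its usual markers.

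The promoters of the 4 genes with the most UMIs in the members among the 8 cycle genes of the rule are shown because these genes chose the cells, and because 3 of the 4 hold late-cycle motifs that the rule did not use. Each run covers 250 bases before to 50 after the RefSeq start site, build GRCm38.p6, 5′ to 3′ on the gene's own strand. Capitals mark CCAAT and TTTGAA, read on both strands (ATTGG and TTCAAA on the other). Top2a, DNA topoisomerase II alpha, lies at chr11:99024140-99024439 on the minus strand. Mki67, the Ki-67 antigen that coats mitotic chromosomes, lies at chr7:135716330-135716629 on the minus strand. Prc1, which bundles microtubules of the central spindle, lies at chr7:80294201-80294500 on the plus strand and is the first of 2 starts listed. Birc5 (survivin), a subunit of the chromosomal passenger complex, lies at chr11:117848987-117849286 on the plus strand.
Top2a: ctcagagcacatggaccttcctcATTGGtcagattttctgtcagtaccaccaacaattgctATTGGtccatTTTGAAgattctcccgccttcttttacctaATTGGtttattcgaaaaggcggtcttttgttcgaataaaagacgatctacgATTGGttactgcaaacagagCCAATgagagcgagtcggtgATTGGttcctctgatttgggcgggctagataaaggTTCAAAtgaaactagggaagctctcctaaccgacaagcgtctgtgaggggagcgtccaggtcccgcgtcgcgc
Mki67: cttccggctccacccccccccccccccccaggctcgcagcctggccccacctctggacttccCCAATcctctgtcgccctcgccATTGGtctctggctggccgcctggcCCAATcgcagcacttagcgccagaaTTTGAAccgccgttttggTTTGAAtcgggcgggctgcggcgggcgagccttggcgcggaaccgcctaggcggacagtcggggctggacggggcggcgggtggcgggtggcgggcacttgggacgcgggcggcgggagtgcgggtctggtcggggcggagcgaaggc
Prc1: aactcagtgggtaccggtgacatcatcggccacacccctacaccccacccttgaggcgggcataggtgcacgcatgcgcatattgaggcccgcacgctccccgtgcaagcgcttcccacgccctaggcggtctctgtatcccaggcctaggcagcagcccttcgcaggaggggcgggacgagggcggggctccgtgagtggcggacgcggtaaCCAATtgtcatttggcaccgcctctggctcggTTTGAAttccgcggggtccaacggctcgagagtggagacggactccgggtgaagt
Birc5: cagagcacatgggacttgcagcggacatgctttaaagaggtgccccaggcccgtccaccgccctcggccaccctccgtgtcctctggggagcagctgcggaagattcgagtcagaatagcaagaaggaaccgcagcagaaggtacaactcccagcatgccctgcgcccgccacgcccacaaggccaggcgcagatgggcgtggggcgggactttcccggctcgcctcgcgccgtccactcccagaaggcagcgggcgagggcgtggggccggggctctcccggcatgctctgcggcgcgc

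Top2a held 6 CCAAT matches between 227 and 58 bases before the start and 2 TTTGAA matches at 179 and 23 bases. Mki67 held 3 and 2, and Prc1 held 1 of each, at 37 and 5 bases before the start. Birc5 held no match to either in this window. The table had a promoter for 7 of the 8 rule genes (not Ccna2), and 6 of the 7 held both motifs. Among all 27025 genes with a promoter of this length, 37.9% held CCAAT, 18.1% held TTTGAA and 7.12% held both. In a list of 60 G2/M genes without the rule genes, 47 had a promoter, and the shares were 74.5%, 68.1% and 59.6%. In a list of 47 S phase genes, 36 had one, and 52.8% held CCAAT, 8.33% TTTGAA and 5.56% both. The replication motif of E2F (TTTCGCGC or TTTGGCGC, both strands) went the other way, at 27.8% of the S phase promoters, 2.13% of the G2/M promoters and 0.833% of all; of the rule genes only Cdk1, the mitotic kinase, held it among the 7. A match is a string of letters, not a measured binding site.

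The members were unevenly spread. FVIO-MHT replicate 1 had 0 members and 0 tumour cells among 332 kept barcodes, which allows a share of up to 0.904% (3 counts of the total; counting error only). FVIO-MHT replicates 2 and 3 had 39 and 262 members, and PBS replicates 1, 2 and 3 had 46, 103 and 20. Comparisons between treatments within the members therefore rest on 2 libraries against 3, and FVIO-MHT replicate 3 supplied more members than the other libraries together. The libraries held between 678337 and 2207534 UMIs. Of all barcodes, 65 occurred in more than 1 library, and 8 member barcodes were among them. Leaving out shared barcodes took the members of PBS replicate 3 from 20 to 13. Its cycling share of tumour cells went from 14.6% to 10.8%. Members of FVIO-MHT replicate 3 went from 262 to 261 and those of PBS replicate 2 from 103 to 101.

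Markers of the tumour and of other cells were read in the members as a description, since the rule itself used some of them. Krt18 and Krt8, keratins of simple epithelium, were detected in 92.1% and 82.3% of members, Epcam, an epithelial adhesion protein, in 65.7% and Krt7 in 58.3%. The 7 tumour epithelial markers summed to 3733 to 6110 CPM (UMIs per 1000000 UMIs of all members of a library). By contrast, the 8 macrophage markers summed to 8.70 to 307 CPM and the 6 neutrophil markers to 77.5 to 570. The neutrophil genes S100a8 and S100a9 were detected in 82.1% and 22.1% of members of FVIO-MHT replicates 2 and 3. In members of PBS replicates 1 to 3 the share was 8.70%, 10.7% and 45%. The 6 fibroblast markers summed to 34.8 to 147 CPM and the 6 erythroid markers to 0 to 132. T cell and NK markers reached at most 14.7 CPM, with Cd3g and Nkg7 at 0 in the members. Endothelial markers summed to 3.23 to 29.4, pericyte markers to 0 to 14.7, skin keratinocyte markers to 17.4 to 265 and mammary luminal markers to 0 to 157 CPM, the last highest in PBS replicate 1 through Ptn, at 139 CPM there. In every library with members, the tumour epithelial sum was the highest of these marker sums. Because 4 of its 7 genes chose the members, no support for the label is drawn from that order. In FVIO-MHT replicate 2 these 4 genes gave 4022 of the 4112 CPM. Cldn4, Cldn7 and Krt19, outside the rule, were at 41.3, 24.8 and 24.8 CPM there, against 570 CPM for the neutrophil markers.

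Free RNA could place cycle or keratin UMIs in other cells. Among 525 barcodes with at least 10 UMIs of the neutrophil genes S100a8 and S100a9 (median 464 UMIs), 4 (0.762%) had 2 or more keratin or Epcam UMIs. Of the same 525, 1 (0.190%) had 3 or more cycle UMIs and 0 had both, with an exact 95% upper bound of 0.70%. FVIO-MHT replicate 1, which held 0 tumour cells, gave 210 of these barcodes, and FVIO-MHT replicate 2 gave 257. FVIO-MHT replicate 3 and PBS replicate 2 gave only 1 and 5, so the pooled bound says little about those libraries. Members had a median of 1991 UMIs and other tumour cells 883. In 158 barcodes with at least 5 C1q UMIs (median 773), 26 (16.5%) had 3 or more cycle UMIs and 3 (1.90%) met both sums. No doublet caller was applied; 9 members and 0 other tumour cells had over 10000 UMIs, the highest member 18062 and the highest other cell 8614.

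Members were deeper than other tumour cells in each library. The median member held 2650 UMIs in FVIO-MHT replicate 2, 1641 in replicate 3, and 2448, 2310 and 2015 in PBS replicates 1 to 3. The other tumour cells had 1475 and 474 in the same FVIO-MHT libraries and 1264, 1245 and 997 in PBS. A deeper cell reaches a fixed UMI sum more readily, so depth moves with membership; its part in what follows was not tested beyond the thinned values given below.

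Cycle RNA varied widely among the members. The 8 genes summed to a median of 7 UMIs per member, with a highest value of 114. Top2a was detected in 88.1% of members, Mki67 in 62.3%, Birc5 in 59.1%, Prc1 in 50.4%, Cdk1 in 36.6%, Ube2c, a ubiquitin-conjugating enzyme of mitotic exit, in 35.3%, Ccna2 (cyclin A2) in 30.9% and Cdc20, an activator of the anaphase-promoting complex, in 29.4%. In all, 356 members had UMIs from 3 or more of the 8 genes, and 24 reached the sum through 1 gene alone. Just outside the threshold, 169 tumour cells had 2 cycle UMIs, with 4471 summed CPM of the S phase list and 4651 of the G2/M list; just inside, 80 members had 3, with 5240 and 6615 CPM. The 1251 tumour cells with 0 cycle UMIs had 1856 and 2117 CPM, and the 186 members with 10 or more had 4657 and 15890. G2/M RNA thus climbed with the cycle sum over these classes while S phase RNA did not climb past the class of 5 to 9 UMIs (5630 CPM).

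Top2a, the most abundant rule gene, stood at 1503 and 1672 CPM in members of FVIO-MHT replicates 2 and 3 and at 2445, 2717 and 1588 CPM in PBS replicates 1 to 3, so the groups overlapped. In other tumour cells it stood at 89.9 and 308 CPM and at 89.1, 102 and 80.0 CPM. Mki67 stood at 636 and 463 CPM in FVIO-MHT members and at 713, 1117 and 882 CPM in PBS members, and here every FVIO-MHT value was below every PBS value. Birc5 had 405 and 566 against 322, 368 and 279 CPM, and Ccna2 had 239 and 194 against 139, 136 and 88.2 CPM, so for these 2 genes the order was the opposite. These levels come from the genes that chose the cells and are given without a test.

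Of the gene lists used, G2/M genes had the highest median ratio of members to other tumour cells of the same library, leaving out the rule genes. CPM ratios were formed in each of the 5 libraries with 1 UMI added to each sum, over 7066 genes with at least 20 UMIs in the members. Of these, 998 genes (14.1%) were higher in members in every library and 412 (5.83%) were lower in every library, with a median log2 ratio of 0.11. Of the 57 G2/M genes with 20 UMIs (of 60 listed), 57 were higher in every library, with a median log2 ratio of 2.74. The rule chose cells by genes of the same phase, so nothing further is read from that count.

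The 4 G2/M genes with the most UMIs were Smc4, Hmgb2, Arl6ip1 and Cenpe. Smc4, a condensin subunit, was at 1660, 1185, 2045, 2695 and 1999 CPM in members of FVIO-MHT replicates 2 and 3 and PBS replicates 1 to 3. In the other tumour cells of those libraries it was at 460, 615, 475, 564 and 531 CPM. Hmgb2, a chromatin protein abundant in dividing cells, had a median log2 ratio of 2.74 (range 1.09 to 2.98), Arl6ip1, a membrane protein of the endoplasmic reticulum, 1.54 (1.21 to 1.74), and Cenpe, a kinesin of the kinetochore, 3.49 (1.65 to 4.3). The steepest ratios belonged to Nusap1, a spindle microtubule protein, at 4.72 (2.49 to 5.38), Kif15, a spindle kinesin, at 4.48 (1.65 to 4.86), Esco2, a cohesin acetyltransferase, at 4.19 (0.84 to 5.49), and Dlgap5, a spindle assembly factor, at 4.19 (2.31 to 6.24). Kif4 and Kif11, 2 more mitotic kinesins, were both at 4.05, and Ccnb1 (cyclin B1) was at 3.98. Tpx2, which activates Aurora A, was at 3.92, Cenpf, a kinetochore protein, at 3.83, Hmmr, a spindle-associated hyaluronan receptor, at 3.81, Bub1, a checkpoint kinase, at 3.78, Racgap1, which acts in cytokinesis, at 3.76, Troap at 3.73, Spc24, of the kinetochore NDC80 complex, at 3.72 and the DNA glycosylase Neil3 at 3.72.

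S phase genes differed by less, and less evenly. Of 47 S phase genes, 24 were higher in members in every library, with a median log2 ratio of 1.34. Pcna, the sliding clamp of DNA polymerase, was at 545, 444, 513, 513 and 926 CPM in members and 300, 328, 366, 238 and 269 CPM in other tumour cells, in the same order of libraries. Hells, a chromatin remodeller of replication, had a median of 1.40 but 0.07 in FVIO-MHT replicate 3, and Rrm2, which makes deoxynucleotides, had 2.42 (0.97 to 3.92). Atad2 and Dut, the other S phase genes among the most abundant, had 1.68 and 0.71.

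Of 14 replication-dependent histones with 20 UMIs (of 58 listed), 8 were higher in every library. The linker histone Hist1h1e had a median log2 ratio of 2.74 (1.15 to 3.25), whereas Hist1h2bc had -1.19 (-1.94 to 0.02). Drop-seq captures polyadenylated RNA and most replication-dependent histone transcripts lack that tail, so these values cover a small part of histone RNA. Of 23 chromatin and tubulin genes, 14 were higher in every library. Tuba1b and Tubb5, tubulins of the spindle, had medians of 1.74 and 1.3, and Ran, the GTPase of spindle assembly and nuclear transport, 1.00. Prothymosin alpha (Ptma), the most abundant of the list, had 0.06.

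The lists of glycolysis and hypoxia, secreted tumour factors and immediate early genes lay on the lower side. Their median log2 ratios were -0.40, -0.29 and -0.34. Other stress lists lay closer to the median of all genes, 0.11. The heat shock list had 0.05, with 5 genes higher and 1 lower in every library. Unfolded protein response genes had -0.03 and iron, haem and oxidative stress genes -0.11. Of 23 glycolysis and hypoxia genes, 6 were lower in members in every library and 0 higher, with a median log2 ratio of -0.40. Ndrg1, a hypoxia-induced gene, was at 438, 73.7, 270, 303 and 265 CPM in members and 889, 111, 564, 754 and 1127 CPM in other tumour cells. Vegfa, the angiogenic factor, had a median of -1.55, Hk2, a hexokinase, -0.90 and Gpi1 -0.86. Aldoc, an aldolase, had -1.42. The most abundant glycolytic genes, Pkm and Ldha, had -0.20 and 0.01.

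Of 16 secreted tumour factors, 5 were lower in every library. Lcn2 (lipocalin 2, an iron-siderophore carrier) was at 99.1, 45.2, 305, 67.8 and 132 CPM in members and 509, 97.5, 1337, 276 and 538 CPM in other tumour cells. Spp1 (osteopontin) had a median log2 ratio of -0.65 (-1.16 to -0.37). Of 19 immediate early genes, 8 were lower in every library, Jund at -0.46 among them. Other genes with the lowest ratios were Cp (ceruloplasmin) at -1.69, the complement protein C3 at -1.40, Id2, an inhibitor of differentiation factors, at -1.55, Slfn2 at -1.41, Flrt3 at -1.37, Tmem87b at -1.51 and Atxn7, part of a histone acetylation complex, at -1.98. Proteasome genes had a median of 0.29 with 13 of 28 higher in every library, and oxidative phosphorylation genes 0.24 with 9 of 34.

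**Figure D1:**
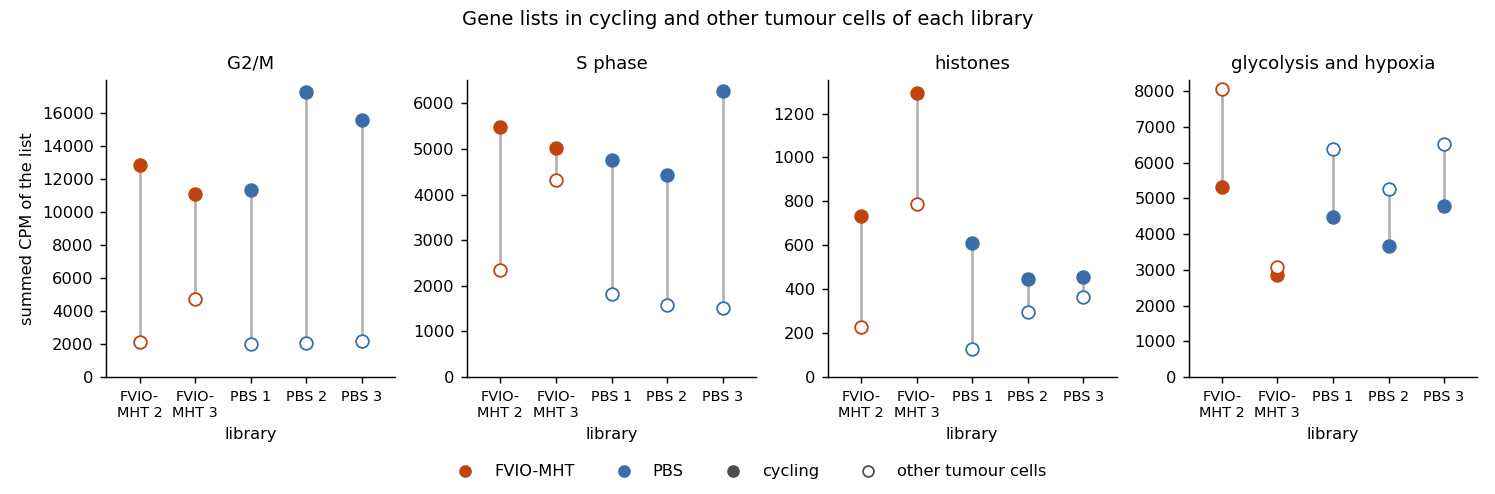
Summed CPM (vertical axis, from 0) of the G2/M, S phase, histone and glycolysis and hypoxia lists in each library (horizontal axis), with filled points for cycling and open points for other tumour cells joined by a line. The G2/M sum was 11105 to 17228 CPM in cycling cells and 1973 to 4710 in other tumour cells, and the highest open G2/M and S phase points are those of FVIO-MHT replicate 3.

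FVIO-MHT replicate 3 had the smallest ratio of the 5 libraries in 81 of 104 S phase and G2/M genes. Its other tumour cells held 4710 CPM of the G2/M list, against 1973 to 2173 CPM in the other 4 libraries, and 4324 CPM of the S phase list, against 1519 to 2347. They were also the shallowest, at a median of 474 UMIs. Restricting both classes to cells of at least 1000 UMIs gave list medians of 2.94 for G2/M, 1.23 for S phase and -0.51 for glycolysis and hypoxia.

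Within the members, most leaned to G2/M. Of 470, 353 had more UMIs of the G2/M list than of the S phase list, 103 had fewer and 14 had as many. The share leaning to S phase was 30.8% and 22.1% in FVIO-MHT replicates 2 and 3 and 26.1%, 16.5% and 20% in PBS replicates 1 to 3. The log2 ratio of summed S phase to G2/M UMIs was -1.23 and -1.14 in FVIO-MHT and -1.25, -1.96 and -1.31 in PBS. Every FVIO-MHT value lay above every PBS value, by as little as 0.02 between the nearest pair. The group means were -1.19 ± 0.06 (SD, n = 2) and -1.51 ± 0.39 (SD, n = 3), and a two-sided exact permutation test gave p = 0.4, where 0.1 is the smallest this design allows. Without PBS replicate 2 the difference of 0.32 became 0.09.

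A larger share of tumour cells was cycling in the FVIO-MHT libraries that held tumour cells. The share was 25.8% (39 of 151) and 26.4% (262 of 993) in FVIO-MHT replicates 2 and 3, and 18.0% (46 of 255), 13.6% (103 of 760) and 14.6% (20 of 137) in PBS replicates 1 to 3. The groups did not overlap: 26.1% ± 0.39 (SD, n = 2) against 15.4% ± 2.35 (SD, n = 3), a difference of 10.7 percentage points. A two-sided exact permutation test over libraries gave p = 0.1, the smallest p that 2 against 3 libraries allow, so the design cannot reach 0.05. The exact (Clopper-Pearson) 95% interval of the share in FVIO-MHT replicate 2, 19.1% to 33.6%, overlapped that of PBS replicate 1, 13.5% to 23.3%.

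Because depth differed, each tumour cell was also thinned to a fixed number of UMIs, leaving out shallower cells. At 500 UMIs the share was 12.5% and 17.2% in FVIO-MHT and 8.58%, 8.0% and 7.69% in PBS (exact permutation p = 0.1). At 1000 UMIs it was 21.4% and 38.4% against 14.7%, 14.0% and 13.5% (exact permutation p = 0.1). Thinning to 500 left out 405 of the 993 tumour cells of FVIO-MHT replicate 3 and 15 to 85 in each other library, and thinning to 1000 left out 647 there. The same cells before thinning to 500 had shares of 27.2% and 41.0% against 19.3%, 15% and 17.1%. The order of the groups was the same at both depths, while the size of the difference was 6.75 and 15.8 points.

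**Figure D2:**
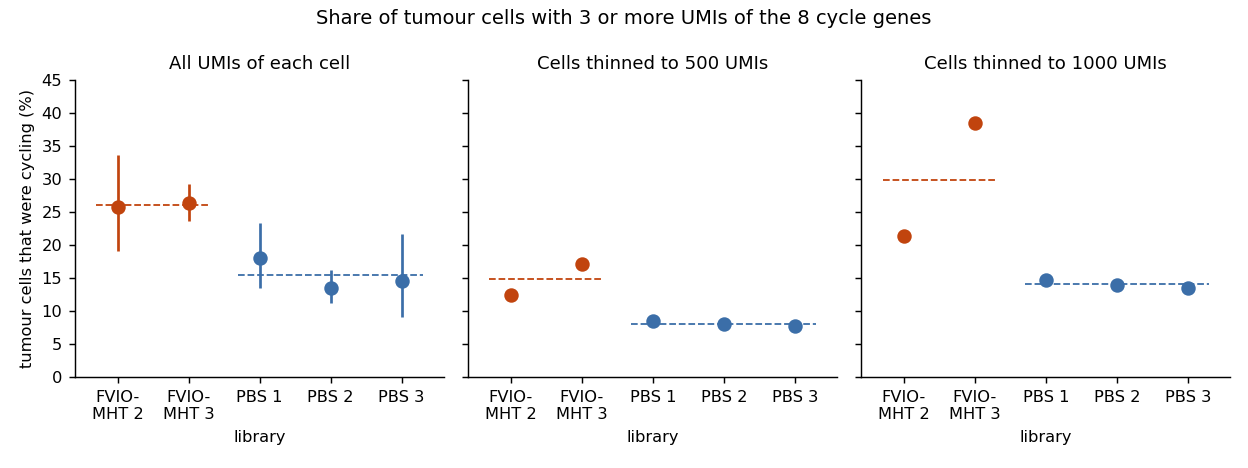
Percent of tumour cells that were cycling (vertical axis, from 0) in the 5 libraries with tumour cells, with all UMIs and after thinning to 500 and 1000 UMIs; orange points are FVIO-MHT and blue points PBS, dashed lines are group means, and bars in the first panel are exact 95% binomial intervals. Both FVIO-MHT points lie above the 3 PBS points in each panel, with the widest gap at 1000 UMIs for FVIO-MHT replicate 3, at 38.4%.

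Over all kept barcodes the groups overlapped. In FVIO-MHT replicates 1 to 3, cycling tumour cells made up 0%, 3.72% and 11.3% of kept barcodes. The same share in PBS replicates 1 to 3 was 4.26%, 7.05% and 4.15%. The FVIO-MHT values lay on both sides of the PBS values. The means were 5.00% ± 5.74 (SD, n = 3) and 5.15% ± 1.64 (SD, n = 3), and the exact permutation test gave p = 0.9. This share also moves with how many tumour cells each library held, from 0% to 52.0% of kept barcodes. Without FVIO-MHT replicate 3 the difference of -0.16 points became -3.29, and without FVIO-MHT replicate 1 it became 2.34.

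Expression in members was then compared between the treatments with UMIs summed per library. Of 2886 genes tested by edgeR's quasi-likelihood test, 0 (0%) passed an adjusted p of 0.05, and 206 had an unadjusted p under 0.05. With no filter on low counts edgeR called 47 of 13106 genes, 43 of them lower. DESeq2 called 10 genes, all lower after FVIO-MHT: Cxcl1, Atf3, Mt1, H19, Dnajb1, Cxcl10, Mt2, Egr1, Jun and Myc. Both FVIO-MHT libraries lay above all PBS libraries for 363 genes (12.6%) and below them for 268 (9.29%). The count rested on single libraries: edgeR called 155 genes without FVIO-MHT replicate 2, 11 without FVIO-MHT replicate 3 and 1 without PBS replicate 1. In the first and the second of these the lone FVIO-MHT library is assumed to vary like the PBS ones, and they shared 8 genes.

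Chemokine and stress genes had the lowest p on the lower side. Cxcl1, a neutrophil-attracting chemokine (chromosome 5, 90891241 to 90893115, GRCm38), was at 198 and 141 CPM in FVIO-MHT replicates 2 and 3 and at 957, 897 and 1088 CPM in PBS replicates 1 to 3. Both FVIO-MHT values lay well under the PBS values, with a log2 fold change of -2.61 ± 0.35 (SE) and an adjusted p of 0.0663 by edgeR. In the other tumour cells Cxcl1 stood at 609 and 150 against 1452, 1812 and 800 CPM, a log2 fold change of -1.97 ± 0.58, and the difference between the classes had an edgeR adjusted p of 0.996. Cxcl10, an interferon-induced chemokine, was at 107 and 33.5 CPM against 479, 300 and 544 (-2.91 ± 0.55, edgeR adjusted p = 0.195), and its log2 fold change was -2.05 without FVIO-MHT replicate 3.

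The metallothioneins, which bind zinc and copper, had the same order. Mt1 was at 454 and 335 CPM after FVIO-MHT and at 1644, 1175 and 1794 CPM after PBS (-2.03 ± 0.35, edgeR adjusted p = 0.180), and Mt2 at 471 and 171 against 1149, 1030 and 2044 CPM (-2.25, and -1.62 without FVIO-MHT replicate 3). Neither group overlapped the other. The co-chaperone Dnajb1 was at 99.1 and 51.9 against 235, 533 and 926 CPM, and Myc, the growth-promoting transcription factor, at 57.8 and 31.8 against 148, 216 and 279 CPM. Errfi1, an inhibitor of EGF receptor signalling, had a log2 fold change of -1.74, Pnrc1 -2.22 and the immediate early gene Csrnp1 -1.66, with edgeR adjusted p from 0.229 to 0.305.

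Immediate early genes, which answer growth factors and stress within minutes, had the lowest median of the lists along with MHC class I. The list's median log2 fold change was -0.97 over 18 tested genes, against 0.01 over all genes. In both FVIO-MHT libraries 10 of 18 lay below, against 9.29% of all genes tested. Summed over the list, members held 9769 and 5969 CPM in FVIO-MHT replicates 2 and 3 and 20717, 13568 and 18333 CPM in PBS replicates 1 to 3. Atf3, a stress-induced transcription factor, was at 314 and 206 CPM against 983, 988 and 1705 CPM (-2.31 ± 0.40, edgeR adjusted p = 0.180). Jun was at 1511 and 555 against 3541, 2927 and 4175 CPM, and Egr1 at 471 and 142 against 1940, 1636 and 706. Fos overlapped between the groups, at 1387 and 707 against 3846, 1046 and 2264 CPM.

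**Figure D3:**
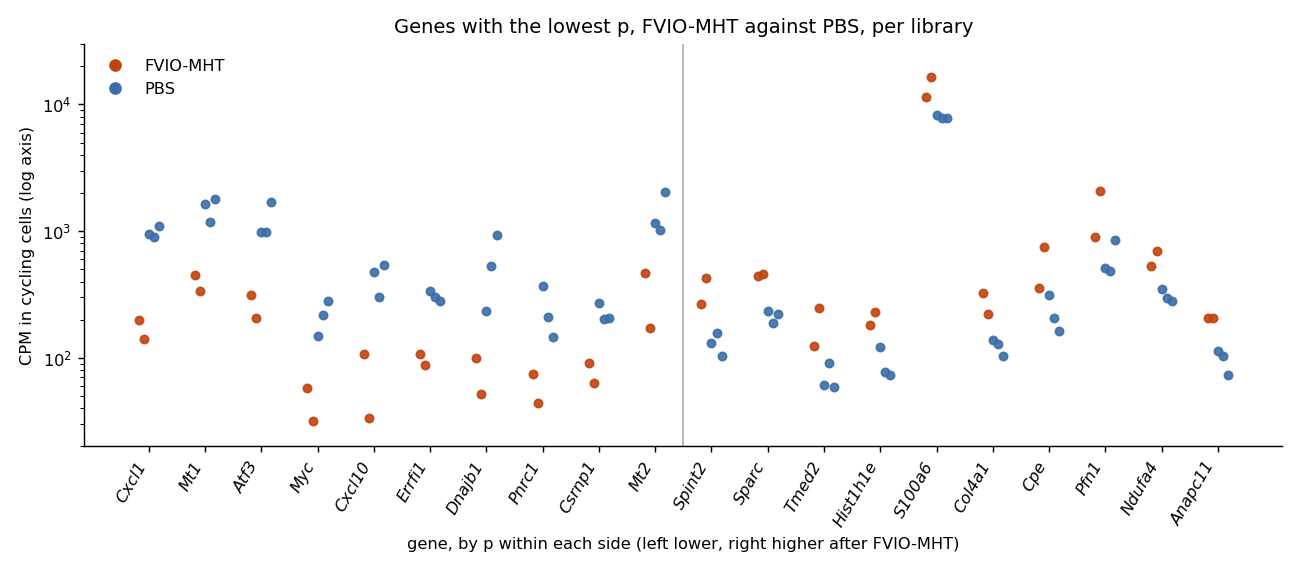
CPM in cycling cells (log axis) of the 10 genes with the lowest p on the lower side (left) and on the higher side (right) of the treatment comparison, in order of p, with 1 point per library and orange for FVIO-MHT, blue for PBS. The points of the treatments do not overlap for any of the 20 genes, and edgeR called 0 of them. The genes were chosen by p, so nothing is read from that separation. Of all 2886 genes tested, 12.6% lay above and 9.29% below in both FVIO-MHT libraries.

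Heat shock genes were uneven across PBS libraries. The list's median was -0.44 over 19 genes, with 6 below in both FVIO-MHT libraries, against 9.29% of all genes tested. Hspa1a and Hspa1b, the inducible HSP70 genes, summed to 339 and 146 CPM in FVIO-MHT members and to 218, 2611 and 2396 CPM in PBS members. PBS replicate 1 was thus on the FVIO-MHT side, and the groups overlapped. The cytosolic chaperone Hsp90ab1 was at 8712 and 10085 against 9519, 9673 and 8983 CPM, and Hsp90aa1 at 5607 and 3786 against 5638, 7216 and 6101 CPM. Hsp90b1 and Hspa5, chaperones of the endoplasmic reticulum, had log2 fold changes of -0.70 and -0.33.

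Antigen presentation genes separated FVIO-MHT replicate 3 from the other 4 libraries. The MHC class I list summed to 22264 CPM in members of FVIO-MHT replicate 2 and 5912 CPM in replicate 3, against 17768, 24228 and 31168 CPM in PBS replicates 1 to 3. Its median log2 fold change was -0.97 over 16 genes. In both FVIO-MHT libraries 3 of 16 lay below, against 9.29% of all genes tested, so most overlapped. H2-D1 and H2-K1, class I heavy chains, were at 6326 and 3691 CPM in FVIO-MHT replicate 2 and 1686 and 722 CPM in replicate 3. In PBS replicates 1 to 3 H2-D1 was at 5769, 7104 and 10777 CPM and H2-K1 at 2776, 4586 and 6366.

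Cd74, the class II invariant chain, was at 834 and 26.8 CPM in FVIO-MHT members and at 774, 1669 and 2573 CPM in PBS members. At least 2 Cd74 UMIs were found in 56.4% and 0.382% of FVIO-MHT members and in 37.0%, 80.6% and 90.0% of PBS members. The class II chain H2-Ab1, chosen after its values were seen, followed at 512 and 15.1 CPM against 339, 926 and 1059. The immune genes Ptprc, Cd52, Tyrobp and Fcer1g together reached 2 UMIs in 0% to 5% of members of a library, and the macrophage markers were highest in FVIO-MHT replicate 3, at 307 CPM, where Cd74 was lowest. The part of immune RNA in these levels was not tested further. Of 16 tested interferon genes, 0 lay below in both FVIO-MHT libraries, against 9.29% of all genes tested.

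**Figure D4:**
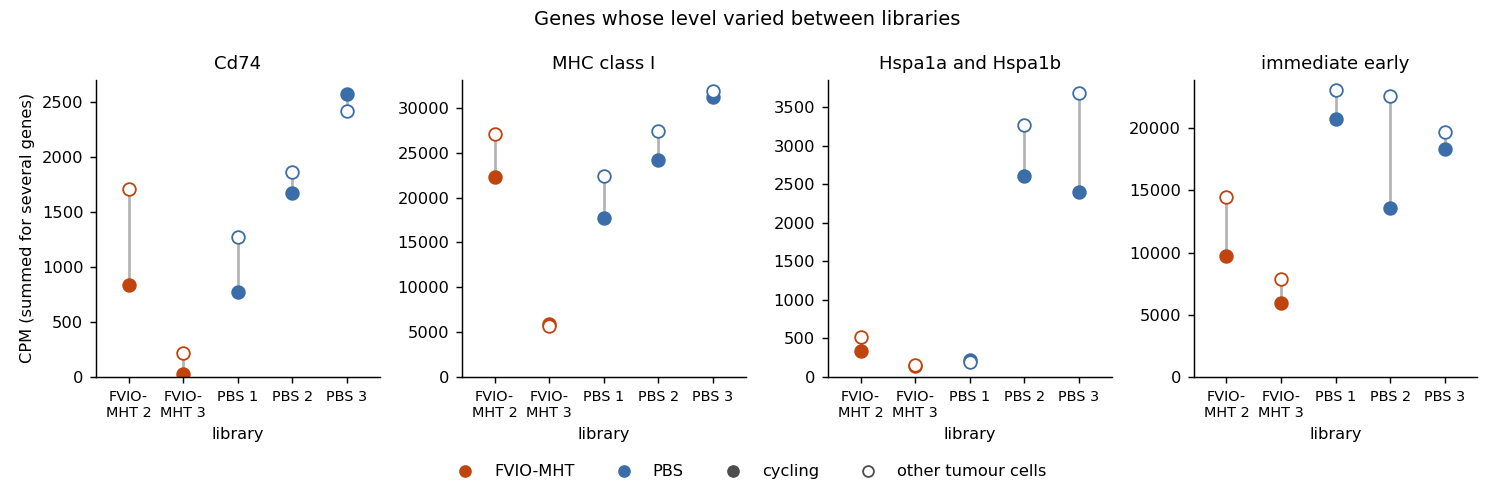
CPM (vertical axis, from 0) of Cd74, the MHC class I list, Hspa1a with Hspa1b and the immediate early list in each library, with filled points for cycling and open points for other tumour cells, orange for FVIO-MHT and blue for PBS. FVIO-MHT replicate 3 is lowest in all 4 panels, with 26.8 CPM of Cd74 in cycling cells, and PBS replicate 1 is near the FVIO-MHT libraries in Hspa1a with Hspa1b.

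On the higher side no gene came near the threshold, with edgeR adjusted p from 0.585 to 0.663 among the 10 lowest p. Spint2, an inhibitor of serine proteases of epithelia, was at 264 and 424 CPM against 131, 158 and 103 CPM (1.33 ± 0.36). Sparc, a matrix glycoprotein, was at 446 and 456 against 235, 187 and 221 CPM (1.04 ± 0.32), and in the other tumour cells at 684 and 795 against 449, 230 and 283. Neither of these genes overlapped between the groups in the members. The calcium-binding protein S100a6 was at 11437 and 16481 against 8231, 7775 and 7807 CPM, and Ndufa4, a mitochondrial respiratory protein, at 529 and 700 against 348, 297 and 279 CPM. Hist1h1e was at 182 and 228 against 122, 77.5 and 73.5 CPM. Anapc11, a subunit of the anaphase-promoting complex, was at 206 and 204 against 113, 103 and 73.5 CPM. Tmed2, Cpe and Pfn1 had log2 fold changes of 1.35, 1.25 and 1.24, which became 0.65, 0.57 and 0.50 without FVIO-MHT replicate 3. Col4a1, a collagen chain of basement membrane, had 1.03, and 0.03 in members with under 2 UMIs of immune genes (Cd74 included), in libraries with at least 10 such members.

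Cycle genes of the lists showed no call in the main edgeR fit, and the S phase and G2/M lists shared no common direction in the members. Over 28 tested S phase genes the median log2 fold change was 0.05, with 8 above and 2 below in both FVIO-MHT libraries. The G2/M list had -0.16 over 39 genes, with 3 above and 8 below. Of all genes tested, 12.6% lay above and 9.29% below. Cenpe was at 603 and 352 CPM after FVIO-MHT and at 861, 1585 and 1132 CPM after PBS, and Cenpf at 586 and 442 against 583, 1352 and 1603, so Cenpf overlapped. Smc4 lay lower, at 1660 and 1185 against 2045, 2695 and 1999 CPM (-0.72 ± 0.30, edgeR adjusted p = 0.671). Mcm6, a subunit of the replicative helicase, was at 239 and 208 against 139, 93.6 and 132 CPM. Oxidative phosphorylation genes had a median of 0.18 over 34 genes with 8 above and 0 below.

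**Figure D5:**
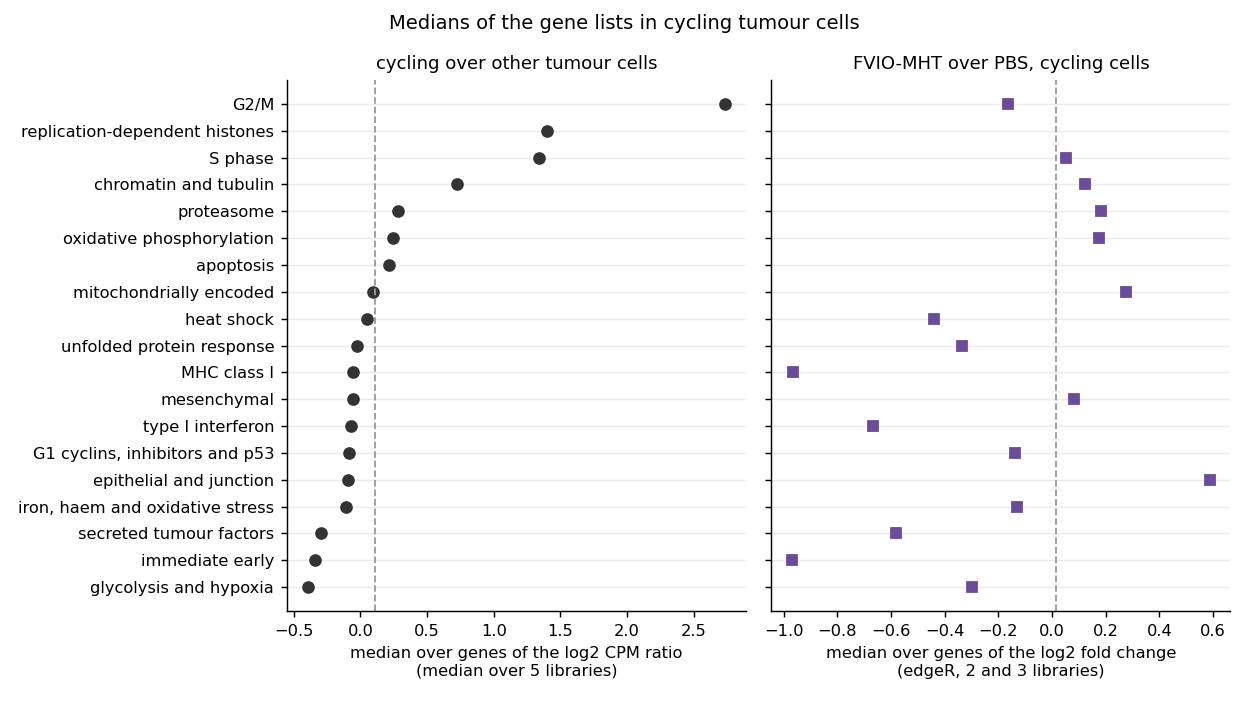
Median log2 ratio of each gene list, for cycling over other tumour cells (left, circles) and for FVIO-MHT over PBS in cycling cells (right, squares, lists with at least 5 tested genes); dashed lines mark the median of all genes, 0.11 and 0.01. G2/M stands at 2.74 on the left and -0.16 on the right, and immediate early and MHC class I share the lowest median on the right, -0.97.

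Whether the treatment difference itself differed between cycling and other tumour cells was tested as an interaction, with library as a block. Of 5950 genes, 26 (0.437%) passed an edgeR adjusted p of 0.05, with 23 lower and 3 higher in cycling cells relative to other tumour cells after FVIO-MHT; DESeq2 called 0. Of the 26, 16 were in the rule, S phase or G2/M lists, and Kif15, Esco2 and Cdca7 outside them are also genes of division or replication. The classes were split by cycle genes, so for such genes the interaction is not independent of the rule. No support is drawn from these 19 calls, and their values are descriptions. For Kif15 the members were at 264 and 193 CPM against 278, 236 and 147, and the other tumour cells at 35.0 and 60 against 6.60, 8.04 and 0 CPM. Its groups overlapped in the members and not in the other tumour cells, of which those of FVIO-MHT replicate 3 were the shallowest. Top2a, Mki67, Cenpe and Tpx2 were the others among the 5 lowest p on the lower side.

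Of the other 7 calls, Cd74 had -1.39 ± 0.29 and H2-Ab1 -1.52 ± 0.33 on the log2 scale, and FVIO-MHT replicates 2 and 3 held 1708 and 216 CPM of Cd74 in other tumour cells and PBS replicates 1274, 1866 and 2420. Plet1, an epithelial surface protein, had 2.50 ± 0.49 (1.90 without PBS replicate 3), from 74.3 and 121 CPM in FVIO-MHT members and 34.8, 71.0 and 73.5 in PBS members against 64.9 and 67.5 and 162, 124 and 727 in other tumour cells. Fxyd3, a regulator of the sodium pump, had 2.74 ± 0.65 and the predicted gene Gm26870 2.58 ± 0.53. On the lower side Cxcl9 had -3.13 ± 0.78 and Fabp4 -4.27 ± 1.04. Fabp4 stood at 64.9 and 178 CPM in other tumour cells of FVIO-MHT replicates 2 and 3. In those of PBS replicates 1 to 3 it stood at 3.30, 3.01 and 29.1 CPM. Zfx and Malat1, next on the higher side, did not pass, at edgeR adjusted p of 0.114 and 0.170. The count of 26 became 55 without FVIO-MHT replicate 2, 1 without FVIO-MHT replicate 3, 0 without replicate 1 or replicate 3 of PBS and 1 without PBS replicate 2, and with 1 FVIO-MHT library the spread comes from PBS alone. It was also 0 with a threshold of 2 cycle UMIs. With cells of at least 1000 UMIs it was 0 as well, but PBS replicate 3 had 16 members there and left the fit.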

How the data were processed

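Drop-seq libraries of 3 FVIO-MHT and 3 PBS tumours were analysed from deposited UMI counts, whole numbers per gene and barcode. The submitters' processing notes name STAR 2.7.2b and mm10. Not given in the sources used here were the UMI counter, the annotation, any use of strand and the reason for 5000 barcodes in each matrix. Of 27998 rows, 65 that repeated a symbol with identical counts were dropped. Of 27933 symbols, 27691 identifiers matched GENCODE M21 (GRCm38), used for positions. Members and gene lists were chosen with earlier results of these data known.

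Doublets were not removed. CPM are UMIs per 1000000, from sums over the cells of a class in a library. Libraries needed at least 20 cells of a class. Treatment was tested on summed counts with edgeR 4.0.16 (R 4.3.3; quasi-likelihood, TMM, filterByExpr, Benjamini-Hochberg adjustment, adjusted p under 0.05). The interaction used library, class and class by treatment. DESeq2 1.42.0 was an alternative. The fits were tested on simulated data. Shares and the S to G2/M ratio were compared by exact permutation over libraries (Python 3.11.15, numpy 2.4.6). Floors and intervals cover counting error only.

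Named genes were the rule genes, the 10 lowest p on each side of the treatment test, the 5 on each side of the interaction, the 15 highest and 10 lowest ratios of cycling to other tumour cells with 1 direction in every library, and up to 4 of the most abundant genes of a list. Genes named beyond these were chosen after their values were seen. Near-identical genes, such as class I heavy chains and Hspa1a with Hspa1b, may share reads. Alternatives covered the tool, scaling, filters on genes, cells, immune and haemoglobin RNA, the cycle threshold, thinning, replicate block and leaving out each library. Those on immune RNA without Cd74, immune RNA with libraries of at least 10 members, at least 1000 UMIs per cell and barcodes of 1 library were added after seeing the data.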

Additional observations from a re-analysis of the deposited data

Results flagged for a closer look

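Leaving out cycle genes, on which the classes depend, the treatment difference was not the same in cycling and other tumour cells for 7 genes by the interaction test of edgeR. Plet1 (2.50), Gm26870 (2.58) and Fxyd3 (2.74) were higher on the log2 scale. Cd74 (-1.39), H2-Ab1 (-1.52), Cxcl9 (-3.13) and Fabp4 (-4.27) were lower. DESeq2 called 0 genes. In other tumour cells of FVIO-MHT replicates 2 and 3, Plet1 stood at 64.9 and 67.5 CPM. Fxyd3 stood at 19.98 and 24.38 CPM there, and Gm26870 at 24.97 and 48.75 CPM. Those of PBS replicates 1 to 3 held 162, 124 and 727 CPM of Plet1 and 23.1, 239 and 283 CPM of Fxyd3. For Gm26870 they held 19.8, 174.8 and 79.95 CPM. In members of PBS replicate 1, Fxyd3 and Gm26870 were at 0 CPM. The part of depth in these values was not tested.

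Cycle RNA also appeared outside the tumour cells. A total of 205 kept barcodes had 3 or more cycle UMIs and under 2 keratin or Epcam UMIs, with a median of 771 UMIs, and they entered the comparisons above only in the number of kept barcodes and, where they held C1q or S100a8 and S100a9 RNA, in the checks on free RNA.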

How the results depend on the processing

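The share of tumour cells that were cycling was higher in FVIO-MHT in all 16 alternatives that gave a value, by 6.38 to 22.7 points, and by 9.79 to 12 with each library left out. The difference in the share of kept barcodes turned positive with a threshold of 2 UMIs (0.210 points), at least 400 genes (3.73), immune RNA under 2 UMIs (2.83) and barcodes of 1 library (0.360), and ran from -3.29 to 2.34 with 1 library left out. Genes called in members numbered 10 with DESeq2, 47 with no filter on low counts and 0 to 155 with 1 library left out. Interaction calls numbered 0 with DESeq2, with a threshold of 2 UMIs, with at least 1000 UMIs per cell and with barcodes of 1 library, 3 with at least 400 genes or with immune RNA without Cd74 under 2 UMIs, 10 with haemoglobin under 2 UMIs, 8 with immune RNA under 2 UMIs and libraries of at least 10 members, and 0 to 55 with 1 library left out, against 33 with library totals only, 25 with no filter and 23 with a threshold of 5 UMIs. PBS replicate 3 fell under 20 members and left the fits with at least 400 genes and those with haemoglobin or immune RNA limits. It also left those with at least 1000 UMIs, barcodes of 1 library or a threshold of 5 UMIs. Leaving out PBS replicate 3 alone gave 0 interaction calls. In these fits the setting thus cannot be told apart from the loss of that library. The causes were not tested.

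Replicate numbers did not mark a stated shared source. Deviations of same-numbered libraries from their group means had correlations of -0.07 and 0.09 for numbers 2 and 3. With 2 FVIO-MHT libraries the deviations of 1 mirror those of the other. These values therefore cannot show whether the numbers pair libraries. With a replicate block edgeR called 52 genes, all lower. Among them were the 10 that DESeq2 called, 9 of the MHC class I list and the G2/M genes Cenpe and Cenpf. All 6 of Cd74 and the class II genes examined were also called. In that fit number 1 held only PBS replicate 1. That library thus entered no treatment difference, and the calls rest on numbers 2 and 3. From numbers 2 and 3, the block gave differences of 12 points in the share of tumour cells and 0.45 in the log2 S to G2/M ratio. In the share of kept barcodes, with number 1 included, the difference was -0.16. The fits with immune RNA under 2 UMIs at 20 members (1 library left in each group) and without FVIO-MHT replicate 1 (not in the fits) were not run.

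The comparison of treatments rests on 2 FVIO-MHT libraries and 470 cells, 262 of them from 1 library. Treatment cannot be told apart from the depth and makeup of FVIO-MHT replicate 3 where that library stands alone.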
